A study of Mus musculus with 12 samples.

Results

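The regions described here are stretches of the mouse genome where each of the 4 libraries of the 1-590 set listed an H2AK119ub peak. The intervals of the 4 peak lists were merged where they overlapped by 1 base on chromosomes 1 to 19, X and Y, which gave 72244 merged regions. A merged region was kept as a member when it met a peak of every list, which left 6423 members, 8.89% of the merged regions. The members were chosen by the presence of peaks in these 4 libraries, so peak presence and peak strength in the set are given as description. The members covered 5.005 Mb of the 27.5 Mb of all merged regions. With a single library per condition, differences between conditions have no replicate check, and no test was run. Intervals in parentheses are Wilson 95% intervals and cover counting error only.

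All cells were c-Kit+ bone marrow cells of mice, labelled as haematopoietic stem and progenitor cells (HSPCs), transduced with a retrovirus for BAP1. A second retrovirus carried ASXL1 residues 1 to 590 (called 1-590), its form 10RA, its form 25RA, or nothing (vector), so the vector control also carried the BAP1 virus. The labels call 10RA condensation-impaired and 25RA condensation-defective. The 1-1067 set, which the labels give as another batch, held residues 1 to 1067 (called 1-1067), the forms 34DN and 36EQ, which the labels call charge-neutralized, and a vector control of that set. All 8 of these conditions were profiled for H2AK119ub by CUT&RUN, an assay in which a nuclease tethered to the antibody releases the marked chromatin. ChIP-seq of BAP1 and of ASXL1 in the 10RA and 1-590 conditions added 4 libraries, for which the labels' descriptions name antibodies to the proteins and their protocols an antibody to the HA tag. Strain, age and sex of the mice are not given in the labels. The labelled cell type could not be checked against markers, since peak lists hold no RNA.

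H2AK119ub is histone H2A with ubiquitin on a lysine near its end. Polycomb repressive complex 1 (PRC1) adds the ubiquitin, and the deubiquitinase BAP1, with ASXL1 as its cofactor, removes it. The mark is best known for covering silent developmental genes such as the Hox clusters, where Polycomb repressive complex 2 (PRC2) adds H3K27me3, and it is also spread thinly over much of the genome. In blood stem cells, truncating ASXL1 mutations and loss of Polycomb members are linked to myeloid disease.

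The lists were of unequal length and depth. The number of peaks was 32495 in 1-590, 28228 in 10RA, 33863 in 25RA and 20124 in vector, with a genome background of 2.06, 1.72 and 1.86 fragments per base in the constructs and 0.908 in vector. Peaks inside members made up 20.2%, 23.6% and 19.7% of the construct lists and 33.0% of the vector list. The libraries were identified by their titles; in the lists of 25RA, 34DN and 36EQ the peaks are named with codes that differ from those titles.

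The members are best pictured by their sequence. The windows below are read from the plus strand of GRCm39 and placed as near to the mean summit of the 4 libraries as a window without annotated UTR could be. CpG dinucleotides, the substrate of DNA methylation, are in capitals. The first 6 are among the 10 strongest promoter members by fold, and Kmt2a, Hoxb2, Hoxd13 and Wnt1 are shown beside them as regulators of blood or of development.
Zfp619, chr7:39167286-39167406: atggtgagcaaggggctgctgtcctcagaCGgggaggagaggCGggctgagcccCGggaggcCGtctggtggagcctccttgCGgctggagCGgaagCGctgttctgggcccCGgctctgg
Coa7, chr4:108185413-108185533: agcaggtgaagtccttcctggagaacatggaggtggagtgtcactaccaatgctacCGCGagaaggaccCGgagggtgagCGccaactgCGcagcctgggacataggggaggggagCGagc
Zfp963, chr8:70202364-70202484: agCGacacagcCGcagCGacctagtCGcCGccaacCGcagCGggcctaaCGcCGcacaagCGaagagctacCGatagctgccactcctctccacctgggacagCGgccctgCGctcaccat
Hps3, chr3:20089268-20089388: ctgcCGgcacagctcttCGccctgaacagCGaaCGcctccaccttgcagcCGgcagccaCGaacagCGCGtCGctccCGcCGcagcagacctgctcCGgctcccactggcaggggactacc
Cenpm, chr15:82128727-82128847: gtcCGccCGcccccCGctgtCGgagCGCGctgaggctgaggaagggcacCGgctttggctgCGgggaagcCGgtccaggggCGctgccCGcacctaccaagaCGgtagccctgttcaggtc
Psmc6, chr14:45567094-45567214: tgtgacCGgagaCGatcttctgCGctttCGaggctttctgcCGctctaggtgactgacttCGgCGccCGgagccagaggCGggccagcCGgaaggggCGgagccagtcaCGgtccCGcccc
Kmt2a, chr9:44792701-44792821: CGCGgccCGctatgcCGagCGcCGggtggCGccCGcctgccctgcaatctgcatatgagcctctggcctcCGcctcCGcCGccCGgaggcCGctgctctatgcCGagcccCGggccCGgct
Hoxb2, chr11:96244070-96244190: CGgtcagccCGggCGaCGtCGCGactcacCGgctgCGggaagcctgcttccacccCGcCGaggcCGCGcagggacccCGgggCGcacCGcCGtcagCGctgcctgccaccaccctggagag
Hoxd13, chr2:74499069-74499189: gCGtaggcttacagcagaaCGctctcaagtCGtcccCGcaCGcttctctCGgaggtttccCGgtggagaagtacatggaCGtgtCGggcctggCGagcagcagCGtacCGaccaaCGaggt
Wnt1, chr15:98688070-98688190: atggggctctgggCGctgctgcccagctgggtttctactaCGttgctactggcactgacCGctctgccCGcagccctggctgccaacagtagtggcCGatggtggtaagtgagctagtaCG

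These windows held between 6 CpGs, at Coa7 and Wnt1, and 17 CpGs, at Hoxb2. Their GC content ran from 61.98% at Coa7, Hoxd13 and Wnt1 to 77.7% at Hoxb2. The GC box GGGCGG, a binding sequence of SP and KLF factors, was searched on either strand. It occurred 2 times in the Psmc6 window, 2 times at overlapping bases in the Cenpm window and 1 time in the Kmt2a window. The other 7 windows held none, which says only that these letters are not in these windows.

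Members lay mostly at promoters, defined as the bases within 2 kb of a protein-coding gene's transcription start site (TSS). The midpoint of 4773 of 6423 members lay there, a share of 74.3% (73.2 to 75.4), against 23% of all merged regions. Regions listed in 3, 2 and 1 libraries had promoter shares of 50.8%, 28.7% and 11.9%, and promoter windows made up 3.01% of the genome. Of the remaining members, 379 (5.90%) had their midpoint in an exon, 540 (8.41%) in an intron and 731 (11.4%) between genes. The median distance from a member's midpoint to the nearest TSS was 278 bases, against 1817, 12331 and 23480 bases for regions listed in 3, 2 and 1 libraries. Outside the coding promoters, 441 of 1574 members (28.02%) overlapped a 2 kb window around a noncoding gene's TSS, against 22.1%, 15.6% and 10.5% of the corresponding regions in 3, 2 and 1 libraries.

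**Figure D1:**
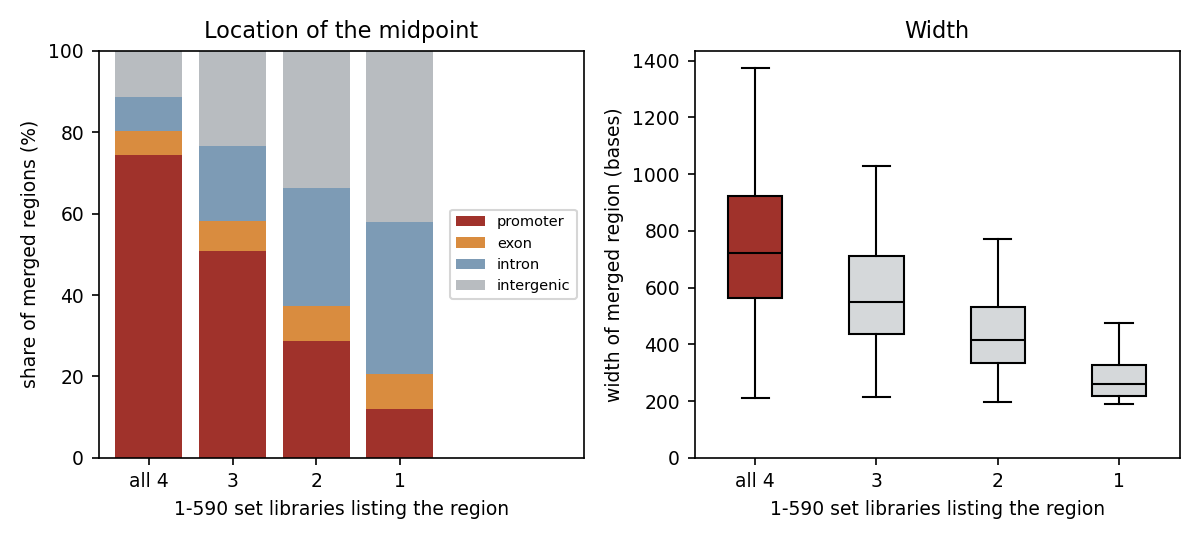
Left, share of merged regions (%) by location of the midpoint, and right, width in bases (line median, box quartiles, whiskers from the minimum to the 95th percentile), for regions listed in all 4 libraries of the 1-590 set (members, 6423) and in 3, 2 or 1. The promoter share is 74.3% for members and 11.9% for regions listed in 1 library, and the median width is 723 and 259 bases.

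Members were wide in relation to the other merged regions. Their median width was 723 bases (quartiles 565 and 924.5, longest 3519), against 551, 416 and 259 bases for regions in 3, 2 and 1 libraries. Width belongs to the rule, since wide intervals overlap more readily and members join peaks of 4 lists, so these values are a description. The median peak inside members spanned 588 bases in 1-590, 415 in 10RA, 455 in 25RA and 419 in vector, against 311, 275, 269 and 272 bases for peaks of the same libraries elsewhere. Most members were 1 peak in each library, from 96.1% of members in 25RA to 98.1% in 1-590. All 4 lists covered a common base in 6027 members (93.8%), with a median of 268 common bases. Only 18 members were longer than 2 kb. The 5 widest were a region at the ribosomal RNA gene Rn18s-rs5 on chromosome 17 and the promoters of Irf2bpl, the thrombomodulin gene Thbd, the potassium channel gene Kcnn2 and Ppp1r3g, which encodes a glycogen-targeting subunit of protein phosphatase 1.

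The weakest of a member's 4 peaks by -log10 p was in 1-590 for 5.62% of members, in 10RA for 36.4%, in 25RA for 19.6% and in vector for 38.3%. This value, the authors' own, had a median of 6.07 and a minimum of 3.001, just past the p of 0.001 at which the lists end, and was under 4 in 431 members (6.71%). Just outside the rule were 5699 regions listed in 3 libraries, of which 537 (9.42%) lacked a peak in 1-590, 1913 (33.6%) in 10RA, 921 (16.2%) in 25RA and 2328 (40.8%) in vector. In 708 of these (12.4%) the missing library had a peak within 1 kb.

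A total of 5408 of 21738 protein-coding genes (24.9%) had a member overlapping the promoter window, and 64.6% had a merged region of any kind there. Of the 4849 members that overlapped such a window, 620 (12.8%) overlapped the windows of at least 2 genes, and 281 (5.80%) of them lay at divergent pairs with start sites within 1 kb. Whatever their orientation, Tcp1, a subunit of the cytosolic chaperonin, and the mitochondrial ribosomal protein gene Mrpl18 shared 1 member. Mis12, a kinetochore gene, shared 1 with Derl2, which acts in degradation of misfolded proteins. Socs2, a feedback inhibitor of cytokine signalling, had 3 members at its promoter (the last at chr10:95252618-95253553), each with 15 to 41 fragments at the summit, and 89 genes had 2 or more.

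The strength of a member was summarized as the mean, over the 4 libraries, of its percentile among the 6423 members by the authors' fold of the peak summit over local background. The 10 strongest promoter members lay at the zinc finger genes Zfp619 and Zfp963, Rnf14, Coa7, Snx11, Mis12 with Derl2, Hps3, Cenpm, Tcp1 with Mrpl18, and Psmc6. Zfp619 (chr7:39166936-39167501, 49 bases downstream of the TSS) had folds of 13.2 in 1-590, 12.4 in 10RA, 10.9 in 25RA and 12.7 in vector, on 55, 38, 35 and 30 fragments at the summit. Coa7 (chr4:108185280-108185620), which encodes a cytochrome c oxidase assembly factor, had folds of 12.8, 9.55 and 9.99 in 1-590, 10RA and 25RA and 10.00 in vector. The strength of these 10 ran from 99.1 at Psmc6 to 99.8 at Zfp619.

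Cenpm (chr15:82128364-82128989), a centromere protein gene, had folds of 11.3, 8.05 and 11.1 in the constructs in the same order and 10.2 in vector. Psmc6 (chr14:45567009-45567589), which encodes an ATPase of the proteasome, had folds of 10.1, 9.92 and 8.51 in the constructs and 12.7 in vector. Hps3 (chr3:20089016-20089538), whose product helps form lysosome-related organelles, had folds of 12.9, 8.47 and 9.95 in the constructs and 9.03 in vector. Fold values are the caller's own for each library and are not compared between libraries. Across the 6423 members, the ranks by fold had Spearman coefficients from 0.654 (10RA with vector) to 0.752 (1-590 with 25RA), given as a description of libraries of 1 batch that share the rule.

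Genes of basic cell machinery had members at a larger share of their promoters than the 24.9% of all genes. Most of their promoters were rich in CpG, and 44.2% of all genes with such promoters had a member, as described below. Of 21 genes for the MCM helicase and replication origins, 11 had a member. Orc6, a subunit of the origin recognition complex (chr8:86025779-86026754), had folds of 10.7, 6.25 and 9.91 in 1-590, 10RA and 25RA and 7.21 in vector, and Gins2, a helicase cofactor, had 8.74, 6.58 and 6.10 in the constructs and 6.43 in vector. The median strength of these 11 was 86.4, against 58.0 over all genes with a member. Members were at 24 of 49 spliceosome and SR protein genes, led by Snrpe, at 23 of 52 DEAD and DEAH box helicase genes, led by Ddx39a and Ddx54, and at 34 of 82 cytosolic ribosomal protein genes, led by Rps14 and Rpl15. Intervals of these shares cover counting over genes and are drawn in the plot of gene lists.

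Energy, translation and protein turnover genes also had shares above the 24.9% of all genes, from 30.8% of proteasome genes to 40.4% of complex I and ATP synthase genes. Intervals of complex I and ATP synthase genes (28.2 to 53.9) and translation factor genes (27.4 to 47.3) lay above 24.9%. Those of mitochondrial ribosomal protein genes (23.9 to 44.4) and proteasome genes (18.6 to 46.4) held it. Members were at 21 of 52 genes of complex I and ATP synthase, led by Atp5mc1 and Ndufb5, at 32 of 87 translation factor genes, led by Eif4g2, at 26 of 78 mitochondrial ribosomal protein genes, led by Mrpl18, and at 12 of 39 proteasome genes. Rpl15 (chr14:4198166-4199134), a gene of the large ribosomal subunit, had folds of 9.02, 6.07 and 5.65 in 1-590, 10RA and 25RA and 6.73 in vector. Atp5mc1, which encodes a membrane ring subunit of ATP synthase, had folds of 10.5, 5.84 and 7.36 in the constructs and 6.66 in vector. Mediator and TFIID genes counted 19 of 53, led by Med11 and Med19, and zinc finger genes named Zfp counted 111 of 412, a share of 26.9% that is near the 24.9% of all genes.

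**Figure D2:**
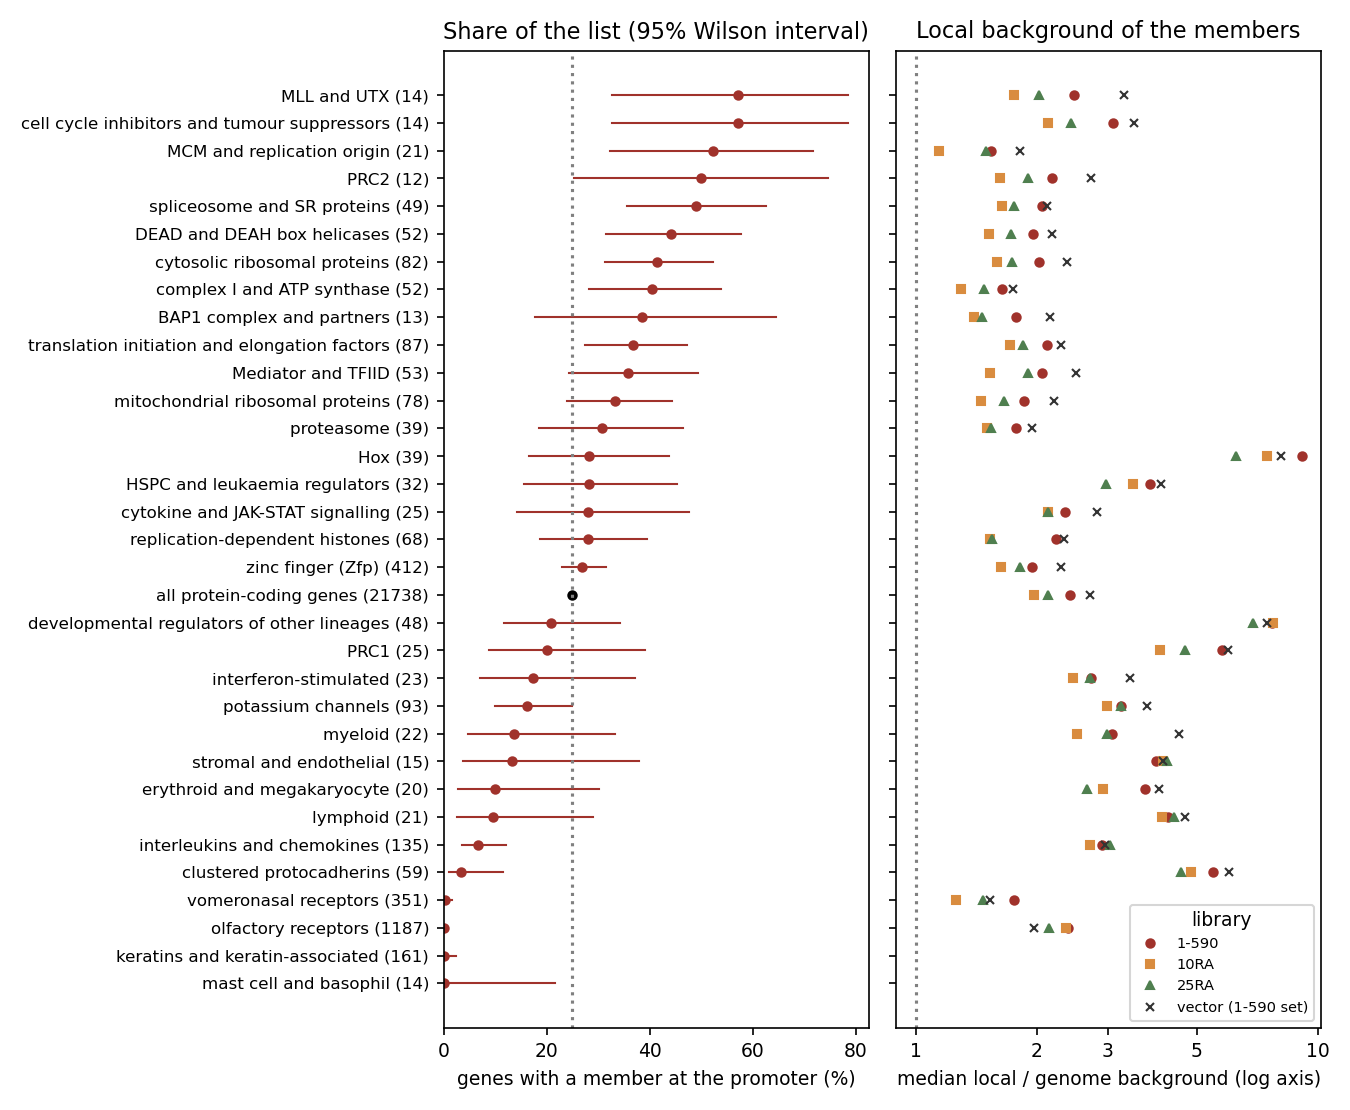
Left, share of the genes of each list with a member at the promoter (%, points, with Wilson 95% intervals; list sizes in parentheses), with all protein-coding genes in black at 24.9%. Right, median local background of those members over the library's genome background (log axis) in each of the 4 libraries; Hox genes and developmental regulators lie between 6.24 and 9.11.

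The Hox homeobox genes, which set position along the body axis, had a member at 11 of 39 promoters: Hoxa13, Hoxb2, Hoxb5, Hoxb6, Hoxb7, Hoxc8, Hoxc11, Hoxd3, Hoxd8, Hoxd12 and Hoxd13. A share of 28.2% is near the 24.9% of all genes. These members differed in form from the ones above. Their summits were tall, with median pileups of 24.8, 20.9 and 16.7 times the genome background in 1-590, 10RA and 25RA and 30.9 times in vector, against 15.5, 10.5, 11.8 and 17.6 times over all genes with a member. The signal around the summits was high as well, with a median local background of 9.11, 7.46 and 6.24 times the genome background in the constructs and 8.09 times in vector, against 2.42, 1.97, 2.14 and 2.71 over all genes with a member.

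The fold divides by that local background, and the median strength of the Hox genes with a member was 8.07, against 58.0 over all genes with a member. Hoxd13 (chr2:74498679-74499342), which patterns the limb ends, had 70, 36 and 42 fragments at the summit in the constructs and 29 in vector, but folds of 3.59, 3.06 and 3.52 in the constructs and 3.45 in vector. Zfp619 had higher folds in every library on fewer fragments in 1-590 and 25RA. Hoxb2 (chr11:96243513-96244441) had 63, 29 and 31 fragments in the constructs and 32 in vector, and folds of 4.27, 3.07 and 3.55 in the constructs and 5.55 in vector. Hoxa9, a driver of leukaemic self-renewal, was no member: its promoter was listed in the 3 constructs and not in vector.

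Developmental regulators of other lineages also had a high local background. Members lay at 10 of 48 (20.8%), among them Nkx2-5, Sox2, Otx2, Pax2, Wnt1, Neurog2, Foxa2 and Emx1. Their median local background was 7.70, 7.72 and 6.88 times the genome background in 1-590, 10RA and 25RA and 7.46 times in vector, and their median strength was 8.60. Clustered protocadherins, adhesion genes of neurons, counted 2 of 59.

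Regulators of blood stem cells and leukaemia had members at 9 of 32 genes, near the 24.9% of all genes. Kmt2a (chr9:44792154-44793061), the H3K4 methyltransferase gene rearranged in leukaemia, had folds of 5.49, 6.52 and 3.63 in 1-590, 10RA and 25RA and 5.23 in vector. Kit, which encodes the receptor by which these cells were isolated, had 37, 30 and 23 fragments in the constructs and 25 in vector (chr5:75735287-75736653). Hhex, Flt3, Ikzf1, Pbx3, Cebpa, Myb and Dnmt3a were the others. The member at Ikzf1, the Ikaros gene of lymphoid fate, was 2011 bases wide (chr11:11634165-11636175). Meis1, a Hox cofactor, was listed in 1-590 and in no other library of the set.

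Cell cycle inhibitors and tumour suppressors had members at 8 of 14, among them Cdkn2c, Stk11, Rbl1, Cdkn2b, Rbl2, Cdkn2d and Cdkn1b. Cdkn2c (chr4:109523751-109524464), which encodes the CDK4 and CDK6 inhibitor p18, had folds of 7.02, 6.47 and 6.87 in the constructs and 9.55 in vector. Cdkn2a, the neighbour of Cdkn2b, was listed at its promoter in the 3 constructs and not in vector. The vector library had the lowest background of the set, and a missing peak there is not a missing mark.

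Genes of the Polycomb and deubiquitinase machinery had members too, at shares whose intervals hold the 24.9% of all genes for PRC1 and the BAP1 complex. PRC2 genes counted 6 of 12, a share of 50% (25.4 to 74.6): Rbbp4, the catalytic subunit gene Ezh2, Mtf2, Jarid2, Phf1 and Aebp2. Rbbp4 (chr4:129228639-129229801) had folds of 8.14, 5.22 and 5.88 in 1-590, 10RA and 25RA and 7.98 in vector. PRC1 genes counted 5 of 25, a share of 20% (8.86 to 39.1): Pcgf1, Yaf2, Pcgf5, Bcorl1 and Cbx8. Cbx8, a chromodomain reader of H3K27me3, had 84, 38 and 42 fragments in the constructs and 25 in vector, with folds between 2.58 and 3.27. The median local background of the PRC1 members was 5.76 in 1-590 and 5.96 in vector, above the 2.18 and 2.73 of the PRC2 members.

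Of 13 genes of the BAP1 complex and its partners, 5 had a member, a share of 38.5% (17.7 to 64.5): Kdm1b, Bap1, Mbd5, Asxl2 and Ube2o. The Bap1 member (chr14:30972993-30973467, 175 bases downstream of the TSS) had folds of 4.71, 4.11 and 5.12 in the constructs and 5.41 in vector, on 21, 13, 18 and 15 fragments. Kdm1b, a histone H3K4 demethylase gene, ranked highest, with folds of 8.28, 8.11 and 6.55 in the constructs and 6.59 in vector. Asxl1 itself was no member, with a promoter peak in 1-590 and 25RA. MLL and UTX complex genes, whose products methylate H3K4 or demethylate H3K27, counted 8 of 14, with Dpy30, Cxxc1, Kdm6a and Kmt2a the strongest.

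Genes of single lineages had members at shares below 24.9%, with no test of the difference. Intervals of the myeloid (4.75 to 33.3), erythroid (2.79 to 30.1), lymphoid (2.65 to 28.9) and stromal (3.74 to 37.9) lists hold 24.9%. That of mast cell and basophil genes (0 to 21.5) does not, but 0 of these 14 genes had a promoter rich in CpG, as described below. Myeloid genes counted 3 of 22 (Cebpd, Cd14 and Csf2ra), erythroid and megakaryocyte genes 2 of 20 (Tfrc and Klf1), lymphoid genes 2 of 21 (Ets1 and Ebf1) and stromal and endothelial genes 2 of 15 (Cxcl12 and Kdr). Mast cell and basophil genes counted 0 of 14, although 10 of them had a merged region of some kind. Interleukin and chemokine genes counted 9 of 135, potassium channel genes 15 of 93 and interferon-stimulated genes 4 of 23, among them Stat2 and the tetherin gene Bst2. Near the 24.9% of all genes, members stood at 7 of 25 genes of cytokine and JAK-STAT signalling (28%), led by Stat2 and Stat3. Replication-dependent histone genes counted 19 of 68 (27.9%), and these 19 genes had 13 members between them. Olfactory receptors counted 1 of 1187, vomeronasal receptors 1 of 351 and keratins 0 of 161.

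CpG content went with these counts. Of 10015 genes with a CpG-rich promoter (the 1 kb around the TSS with observed over expected CpG of at least 0.6 and GC of at least 50%), 44.2% had a member (43.2 to 45.2), against 8.39% of the 11723 other genes (7.90 to 8.90). CpG-rich promoters belonged to 73 of 82 cytosolic ribosomal protein, 43 of 49 spliceosome, 43 of 52 DEAD and DEAH box and 15 of 21 MCM and origin genes. Their shares with a member were 41.5%, 49.0%, 44.2% and 52.4%. Of the developmental regulators 38 of 48 were CpG-rich, with a share of 20.8%. Myeloid genes were CpG-rich at 2 of 22 and erythroid and megakaryocyte genes at 1 of 20, with shares of 13.6% and 10%. Mast cell and basophil genes were CpG-rich at 0 of 14, with a share of 0%. The interval of that share (0 to 21.5) holds the 8.39% of genes without a CpG-rich promoter. Members had a median GC content of 65.1% and an observed over expected CpG of 0.787 in a window at their centre, against 59.8% and 0.552 for regions listed in 3 libraries and 52.2% and 0.204 for those in 1. By the same thresholds 87.2% of promoter members were CpG-rich (86.2 to 88.1), against 51.3% of other merged regions at promoters (50.4 to 52.2). Away from promoters the shares were 34.5% for members (32.3 to 36.9) and 3.66% for other regions (3.50 to 3.82).

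Short sequences were searched on both strands in the same windows. The GC box GGGCGG occurred in 67.9% of promoter members, against 42.5% of other regions at promoters and 46.9% of all promoters. The ETS sequence CCGGAAGT occurred in 6.22%, against 3.26% and 4.82%. The E box CACGTG, of MYC and related factors, occurred in 7.58%, against 7.45% and 7.75%. AGATAA, of the GATA factors, occurred in 2.24%, against 4.80% and 8.34%, and TGTGGT, of RUNX factors, in 10.5%, against 15.0% and 14.7%. A match describes the letters and is no evidence of a bound site.

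The summits of promoter members lay just inside the gene. The strongest summit was downstream of the TSS in 68.8% of 4773 promoter members in 1-590, 67.7% in 10RA, 68.7% in 25RA and 69.7% in vector. The median position was 93, 102 and 102 bases downstream in the constructs and 106 bases in vector. The 4 libraries placed their summits at nearby but not equal bases: the median distance between the outermost of a member's 4 summits was 181 bases.

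**Figure D3:**
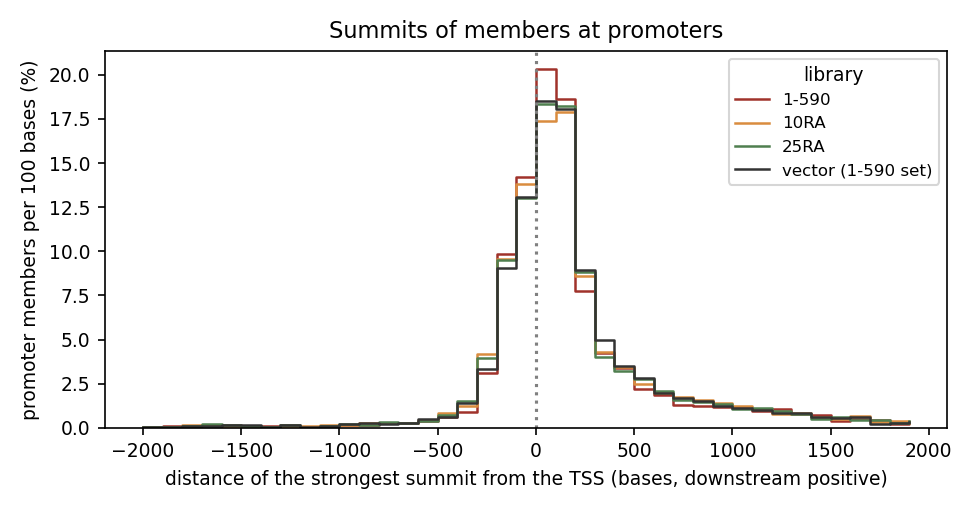
Distance in bases of the strongest summit from the TSS (x axis, downstream positive, bins of 100 bases) for the 4773 members at promoters, as a share of members (%), in each of the 4 libraries of the 1-590 set. All 4 curves peak within the first bins after the TSS, with medians of 93 to 106 bases.

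Ranks within a library were then compared with those in vector, for the promoter members farthest apart. They rest on few fragments, have no replicate and were picked for their difference. The member shared by Gucd1 and the spliceosome gene Snrpd3 stood at percentile 88.3 of members by fold in 1-590 and 10.3 in vector, on 56 and 12 fragments. Rab5a, an early endosome GTPase gene, stood at 91.2 in 1-590 and 15.6 in vector. In the other direction, the Notch target Hey2 stood at 0.288 in 1-590 and 80.3 in vector, and the growth factor gene Fgf20 at 20.8 and 93.2.

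In 10RA, the replication factor gene Rfc1 stood at percentile 95.2 and in vector at 6.81, on 19 and 5 fragments, and Map2k1, the MEK kinase gene, at 99.0 in 10RA and 20.2 in vector. Tex30 stood at 13.0 in 10RA and 89.2 in vector, and Cuedc1 at 2.58 and 78.0. In 25RA, Zfand4 stood at 94.9 and in vector at 5.60, and the member shared by Trappc4 and Rps25 at 94.6 in 25RA and 18.97 in vector. Rps19, a ribosomal protein gene, stood at 13.6 in 25RA and 92.7 in vector, on 14 and 25 fragments, and Pfkl, a phosphofructokinase gene, at 14.3 and 87.1. Fth1, the ferritin heavy chain gene (chr19:9959678-9960344, named after its values were seen), stood at 70.3, 98.9 and 99.90 in 1-590, 10RA and 25RA and 99.91 in vector, on 39, 40 and 115 fragments in the constructs and 159 in vector.

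The 1-1067 set, a separate batch of libraries that the rule did not use, listed peaks at 2198 members, 34.2% (33.1 to 35.4), against 8.19% of all merged regions. Overlap was counted from 1 base, so wider regions meet more peaks, and shares were not corrected for the greater width of members. By library the shares were 16.7% in 1-1067, 12.8% in 34DN, 16.4% in 36EQ and 13.9% in the vector of that set, against 3.34%, 2.3%, 3.09% and 2.9% of all merged regions. Regions in 3, 2 and 1 libraries of the 1-590 set had a peak in any of these 4 in 16.1%, 9.41% and 3.64% of cases. The lists of the 1-1067 set, from 5307 to 6310 peaks, each hold fewer peaks than there are members. With q of 0.05 or less in every list, 21.3% of members had a peak in that set, against 4.04% of all merged regions so filtered. Of all peaks in these 4 lists, 17.1% in 1-1067, 15.5% in 34DN, 17.3% in 36EQ and 15.6% in vector lay in a member. Of those with q at or under 0.05 the shares were 29.4%, 32.7% and 33.9% in the constructs and 34.3% in vector.

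At promoters 37.0% of members had a peak in the 1-1067 set, against 17.5% of all merged regions there. Elsewhere 26.1% of members had one, against 5.40% of all merged regions elsewhere. In 5 equal bins of members by strength, the share was 11.8% in the weakest (10.1 to 13.6), then 21.9%, 30.8% and 41.9%, and 64.8% in the strongest (62.1 to 67.4). Median widths of the bins were close, from 712 to 742.5 bases, while the promoter share ran from 53.0% to 91.4%. Of the Hox genes with a member 0 of 11 had a 1-1067 set peak there, and of the developmental regulators 0 of 10, against 39.3% of all genes with a member. The median strengths of these lists were low, 8.07 and 8.60, and in the weakest bin 11.8% of members had a peak. Whether the lists differ from other members of like strength was not tested. MCM and origin genes counted 8 of 11, translation factor genes 20 of 32 and proteasome genes 8 of 12. Spliceosome genes counted 7 of 24 and replication-dependent histone genes 4 of 19, shares of 29.2% and 21.1%. The 19 histone genes had 13 members between them, so a shared member can count for more than 1 gene.

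**Figure D4:**
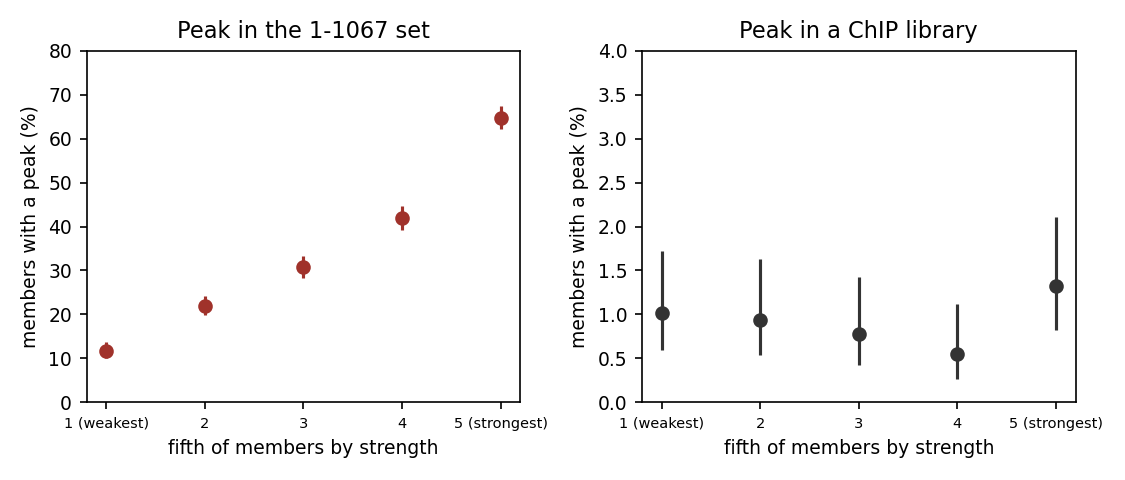
Share of members (%, points, with Wilson 95% intervals) with a peak in at least 1 library of the 1-1067 set (left) and in at least 1 ChIP library (right), by bin of strength from weakest to strongest. The left share runs from 11.8% to 64.8%; the right shares lie between 0.545% and 1.32%, with overlapping intervals. The 2 vertical axes differ in scale.

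Peaks in all 4 libraries of the 1-1067 set, and so in all 8 H2AK119ub libraries, were present at 180 members (2.80%), against 0.313% of all merged regions. Of these, 146 were at promoters. The strongest besides Zfp619 and Snx11 included Med11, a Mediator subunit gene, Papss1, which makes the sulfate donor of the cell, Itfg2, Idi1 of isoprenoid synthesis, Nadsyn1 of NAD synthesis, and the pair BC005624 and Usp20. Med11 (chr11:70342650-70343218) had folds of 11.4, 9.18 and 7.81 in 1-590, 10RA and 25RA and 9.52 in vector. Idi1 (chr13:8935525-8936215) had 12.6, 10.4 and 12.1 in the constructs and 7.68 in vector.

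ChIP peaks of BAP1 and ASXL1 were rare at members. At least 1 of the 4 ChIP libraries had a peak at 59 members, 0.919% (0.713 to 1.18), near the 0.782% of all merged regions. These shares too were not corrected for the greater width of members. By library, 33 members met a peak of BAP1 with 10RA, 21 of BAP1 with 1-590, 33 of ASXL1 with 10RA and 49 of ASXL1 with 1-590, which are 0.514%, 0.327%, 0.514% and 0.763%, against 0.296%, 0.0858%, 0.177% and 0.49% of all merged regions. Peaks of 2 or more ChIP libraries were at 31 members (0.483%), against 0.12% of all merged regions, and peaks of all 4 at 21 (0.327%), against 0.0623%. With q of 0.05 or less in every list, 0.576% of members had a ChIP peak, against 0.231% of all merged regions so filtered. At promoters the share with any ChIP peak was 0.293%, 14 of 4773, near the 0.277% of all merged regions at promoters. Elsewhere it was 2.73%, 45 of 1650, against 0.933% of all merged regions elsewhere. In members lay 0.636% of the peaks of BAP1 with 10RA, 0.560% of BAP1 with 1-590, 0.764% of ASXL1 with 10RA and 0.585% of ASXL1 with 1-590. Of their peaks with q of 0.05 or less the shares were 3.02%, 4.62%, 6.37% and 2.26% in the same order.

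Repeated sequence moved with the ChIP overlap. A member was called multi-copy where its 32-base words occurred a median of 2 times or more in the genome assembly, which held for 55 members (0.856%). Copies absent from the assembly are not counted. Among members with a ChIP peak 13 of 59 were multi-copy (22.0%), and among those without one 42 of 6364 (0.660%). Without multi-copy regions the share of members with a ChIP peak was 0.722%, and that of all merged regions was 0.719%. Peaks of 2 or more ChIP libraries were at 21 of these members (0.330%), against 0.0780% of all merged regions so filtered. Peaks of all 4 were at 16 (0.251%), against 0.0425%. Beyond this, the part of repeated sequence was not tested. Kmt2a and Fth1, both single-copy, had a peak of ASXL1 with 10RA and of no other ChIP library.

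**Figure D5:**
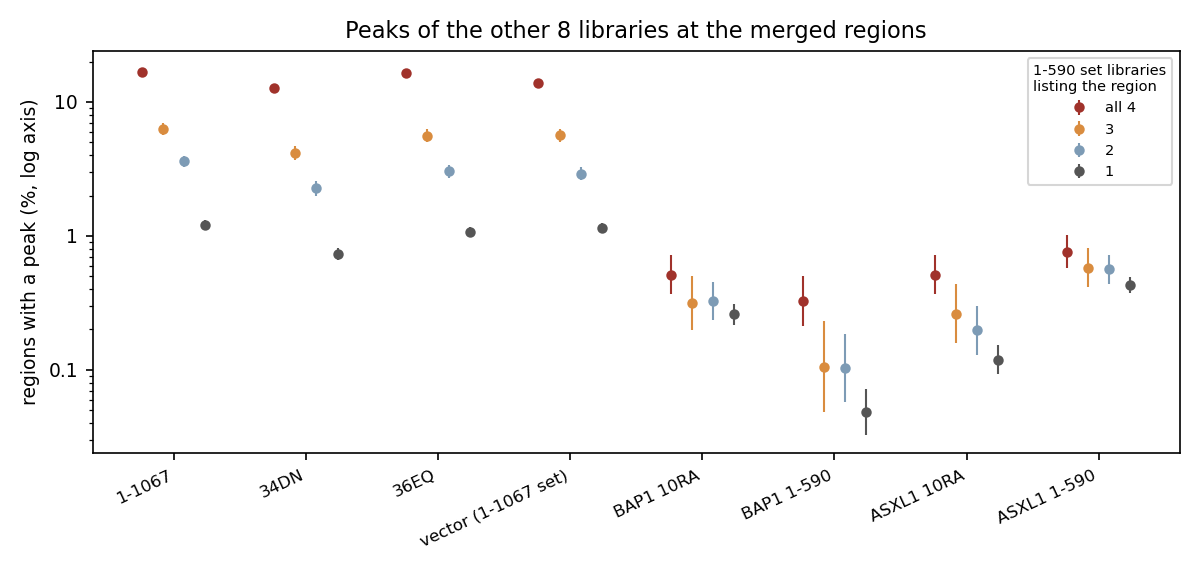
Share of merged regions (%, log axis, with Wilson 95% intervals) with a peak in each of the 8 libraries outside the 1-590 set, by the number of 1-590 set libraries that listed the region. For members the H2AK119ub libraries lie between 12.8% and 16.7% and the ChIP libraries between 0.327% and 0.763%.

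Peaks in all 12 libraries were listed at 16 members, 15 of them outside promoters. The strongest lay between genes at chr3:5925404-5925868, with folds of 25.3, 22.5 and 24.4 in 1-590, 10RA and 25RA and 22.2 in vector. Another lay in an exon of Lars2, whose product charges leucine to tRNA in mitochondria (chr9:123290868-123291255), with 287, 156 and 135 fragments in the constructs and 125 in vector. Further ones lay in introns of Sfi1 (2 members), Coil, Tmem267 and Drg1, at the promoter of Elobl, between genes at chr2:98496904-98497656, and near the ends of chromosomes X and Y. The words of 5 of the 16 were multi-copy in the assembly, which does not make the others unique in the cells.

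The remaining 3 lay side by side at the ribosomal RNA gene Rn18s-rs5 on chromosome 17. Their words occurred a median of 1, 1.5 and 1 times in the assembly, so none of them counted as multi-copy. The first (chr17:40154093-40157611) was the widest member and had 1341, 787 and 775 fragments at the summit in the constructs and 572 in vector, on a local background of 188, 120 and 103 times the genome background in the constructs and 157 times in vector. Its folds were 3.45, 3.79 and 4.05 in the constructs and 3.99 in vector. Libraries made with the antibody to the histone mark and those made for BAP1 or ASXL1 both listed peaks at these 16 members.

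Members were unevenly spread over the chromosomes. Chromosome X held 86 members, 2.88% of its 2991 merged regions, against 7.86% on chromosome 6 to 10.8% on chromosome 8 among the autosomes. At the level of genes, 67 of 980 on X had a member (6.84%), against 18.6% on chromosome 7 to 37.4% on chromosome 12. Kdm6a, an H3K27 demethylase gene on X, and Bcorl1, a PRC1 partner, were among the 67. Chromosome Y held 2 members, both listed in all 12 libraries.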

How the data were processed

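Peak lists from 12 libraries of mouse c-Kit+ bone marrow cells were analysed, 1 per condition, grouped by their labels. The submitters' processing notes name MACS3 3.0.3, Picard, SAMtools, fastp 0.24.0, Bowtie2 2.5.4 and the build mm39. The labels give E. coli spike-in normalization for CUT&RUN and say nothing of a control library. In each deposited list the fold, a ratio at the summit over local background, the -log10 p and -log10 q, and the score, 10 times -log10 p, are the authors' caller's own. Peaks up to p of 0.001 are listed whatever their q, which reaches 13.1% in 25RA and 51.4% in ASXL1 with 10RA.

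Intervals were merged and overlapped with numpy 2.4.6 by 1 base or more, with no regions excluded, and counts equalled those of bedtools 2.31.1 on simulated data. For each peak, the whole number of fragments was found that with the fold gives the deposited -log10 p, and the local background with it. It matched within 0.001, or 0.01% where that is larger, for 99.978% to 100% of the peaks of a list. The genome background is the lowest local background of a list. Genes were the 21738 protein-coding genes of the GRCm39 annotation. Promoters of genes were counted by overlap with the window, locations by the midpoint. Copies were read from 32-base words taken every 50 bases and counted in the assembly, so copies absent from it are missed. Repeat-masked shares were not computed. Peak lists give no read totals, so depth is given by the background.

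The members, the 32 gene lists (3316 of 3317 symbols found) and the alternatives were chosen with earlier results of these data known. Named genes follow a rule: the 10 strongest promoter members, the 5 widest, members in all 12 or all 8 H2AK119ub libraries, those farthest from their vector rank, the strongest of each list, and Bap1, Asxl1, Kmt2a, Cdkn2a, Hoxa9 and Meis1 always. Ikzf1, Cbx8 and Fth1 were given values, and other members of short lists named, after their values were seen. No test was run, since each condition had 1 library. Some genes that the rule names are not reported here.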

Additional observations from a re-analysis of the deposited data

How the results depend on the processing

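With peaks of q of 0.05 or less in every list, 21.3% of members had a peak in the 1-1067 set and 0.576% in a ChIP library, against 4.04% and 0.231% of all merged regions so filtered. With the 4 lists shortened to the length of the shortest by p, the promoter share was 77.9%, the 1-1067 set share 37.6% and the median width 732 bases. Merging across gaps of up to 1 kb gave a promoter share of 73.0% and a width of 859 bases. Requiring 1 base in all 4 lists gave a width of 709 bases. Without the vector requirement the promoter share was 66.7%, the 1-1067 set share 29.0% and the width 678 bases. The promoter share was 69.0% with windows of 1 kb, 78.6% with 5 kb and 75.5% by any overlap. The 1-1067 set share was 32.4% with an overlap of 50% of the shorter interval. The number of members ran from 5191 to 8751 and the number of genes from 4640 to 6485 over the alternatives, within 1.5 times of the values reported. Leaving out multi-copy regions, chosen after seeing the data, moved no value beyond its counting interval. No paired analysis was possible because each condition had 1 library and no test was made. Lists hold peaks past a threshold, so a region without a peak may carry the mark below it, most of all in vector, the shallowest library of the set.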
